A study of Rattus norvegicus with 9 samples.

Results

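The 6 genes followed here mark microglia, leukocytes and the complement system in rat brain tissue: Aif1 (ENSRNOG00000000853), Tyrobp (ENSRNOG00000020845), Cd68 (ENSRNOG00000037563), Itgam (ENSRNOG00000019728), Ptprc (ENSRNOG00000000655) and C3 (ENSRNOG00000046834). They were picked by name and Ensembl ID, with no threshold on their values but with earlier results of these data known, and are 6 of the 32883 genes in the deposited table. All 6 passed the filter on low values (at least 1 FPKM in at least 3 of the 9 libraries) that left 15051 genes for testing. The pairing of these 6 IDs with gene symbols came with the list itself, since the deposited table gives IDs only. FPKM are fragments scaled to transcript length and to the number of mapped fragments. This scaling alone does not make levels fully comparable between libraries, because their FPKM sums were unequal. PN 3A had the largest sum (445693) and MCAO 7A the smallest (387893). Comparisons between groups were also run with other scalings.

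The study compared 3 groups of 3 rat brain samples each by RNA sequencing. Sham rats had a sham operation, MCAO rats had middle cerebral artery occlusion, a surgical model of ischaemic stroke, and PN rats had the occlusion and received Panax notoginseng, a medicinal plant. The occlusion is thus shared by MCAO and PN. The sources used here do not give strain, age, dose, brain region, hemisphere or sampling time. They also do not say that each sample is a separate animal, so the p-values reflect the spread among these 9 samples alone, which may be technical. Libraries are called by group and sample code, such as MCAO 6B.

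Microglia are the resident macrophages of the brain. After ischaemia they become reactive, and monocytes and neutrophils can enter the tissue from the blood, so that in stroke models markers of both cell populations are commonly used to follow the inflammatory response. Aif1 encodes IBA1, a calcium-binding protein of microglia and macrophages, and Tyrobp encodes DAP12, an adaptor that carries the signal of receptors such as TREM2. Cd68 is a lysosomal glycoprotein of phagocytes, Itgam is the CD11b chain of complement receptor 3, and Ptprc is CD45, a phosphatase on all nucleated blood cells and, at a lower level, on microglia. C3 is the central component of the complement cascade; its cleavage products coat targets that cells carrying CD11b can engulf, and reactive astrocytes can make it as well as myeloid cells. In bulk tissue, more cells of a type and more RNA per cell cannot be told apart.

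RefSeq promoter sequence (assembly GRCr8) was found for 4 of the 6 genes and is shown for these. Each line holds the 250 bases before the annotated start, 5′ to 3′ on the gene's strand, and capitals mark GAGGAA or its reverse complement TTCCTC, a core that binding sites of the myeloid transcription factor PU.1 commonly contain.
Cd68 (chr10:54882442-54882691, minus strand): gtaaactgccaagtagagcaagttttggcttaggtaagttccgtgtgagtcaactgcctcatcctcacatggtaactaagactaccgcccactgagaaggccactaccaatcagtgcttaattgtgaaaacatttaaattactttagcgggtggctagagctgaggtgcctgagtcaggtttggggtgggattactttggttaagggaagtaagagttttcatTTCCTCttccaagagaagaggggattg
Itgam (chr1:192089342-192089591, plus strand): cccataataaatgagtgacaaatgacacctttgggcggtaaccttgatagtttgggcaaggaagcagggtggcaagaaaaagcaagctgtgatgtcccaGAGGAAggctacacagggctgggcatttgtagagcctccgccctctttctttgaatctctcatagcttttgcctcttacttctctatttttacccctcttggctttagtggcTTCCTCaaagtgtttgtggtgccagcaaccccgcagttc
Ptprc (chr13:52259747-52259996, minus strand): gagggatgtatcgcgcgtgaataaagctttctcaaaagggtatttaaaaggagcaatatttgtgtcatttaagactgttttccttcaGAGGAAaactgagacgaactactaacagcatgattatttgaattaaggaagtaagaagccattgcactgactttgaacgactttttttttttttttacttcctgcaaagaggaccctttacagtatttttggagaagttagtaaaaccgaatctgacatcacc
C3 (chr9:2201340-2201589, minus strand): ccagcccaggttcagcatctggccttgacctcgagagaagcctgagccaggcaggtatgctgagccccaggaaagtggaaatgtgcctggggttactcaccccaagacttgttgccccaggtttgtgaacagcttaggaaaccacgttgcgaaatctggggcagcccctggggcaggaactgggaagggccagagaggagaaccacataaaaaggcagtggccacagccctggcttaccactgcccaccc
The motif was present in 3 of the 4 promoters. Itgam held it 2 times, with first bases 151 and 39 bases before the start, Cd68 held it once, 27 bases before the start on the opposite strand, and Ptprc once, 163 bases before the start. In the C3 window these letters did not occur. Of 33469 rat promoter windows of the same length, 23.3% held the motif on either strand and 3.39% held it more than once. A match describes the letters and was not tested as a binding site.

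Across the 9 libraries the 6 markers spanned wide and similarly ordered ranges, and the order of the libraries followed the groups only in part. The sham library 5B was the lowest for 6 of 6 genes, and PN 6A was the highest for 5 of 6, the exception being C3, which was highest in MCAO 7A. Between these extremes Ptprc differed 9.84-fold, Aif1 10-fold, Tyrobp 17.6-fold, Itgam 36.8-fold, C3 58.2-fold and Cd68 134-fold. The folds of Itgam and Cd68 divide by sham 5B values under 1 FPKM (0.522 and 0.443 FPKM). On the log2(FPKM + 1) scale the standard deviations of the 6 markers over the 9 libraries ran from 0.782 (Ptprc) to 1.73 (C3), against a median of 0.345 over all genes tested. They were larger than those of 93.0% (Ptprc) to 99.6% (Cd68 and C3) of these genes. Much of this spread lay inside groups: group means held 36.3% of the variation of Ptprc, 45.9% of C3, 47.9% of Itgam, 49.0% of Cd68, 51.5% of Tyrobp and 54.4% of Aif1, where the median gene had 29.0%. The within-group standard deviation was larger than that of 91.9% (Aif1) to 99.4% (C3) of genes tested.

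**Figure D1:**
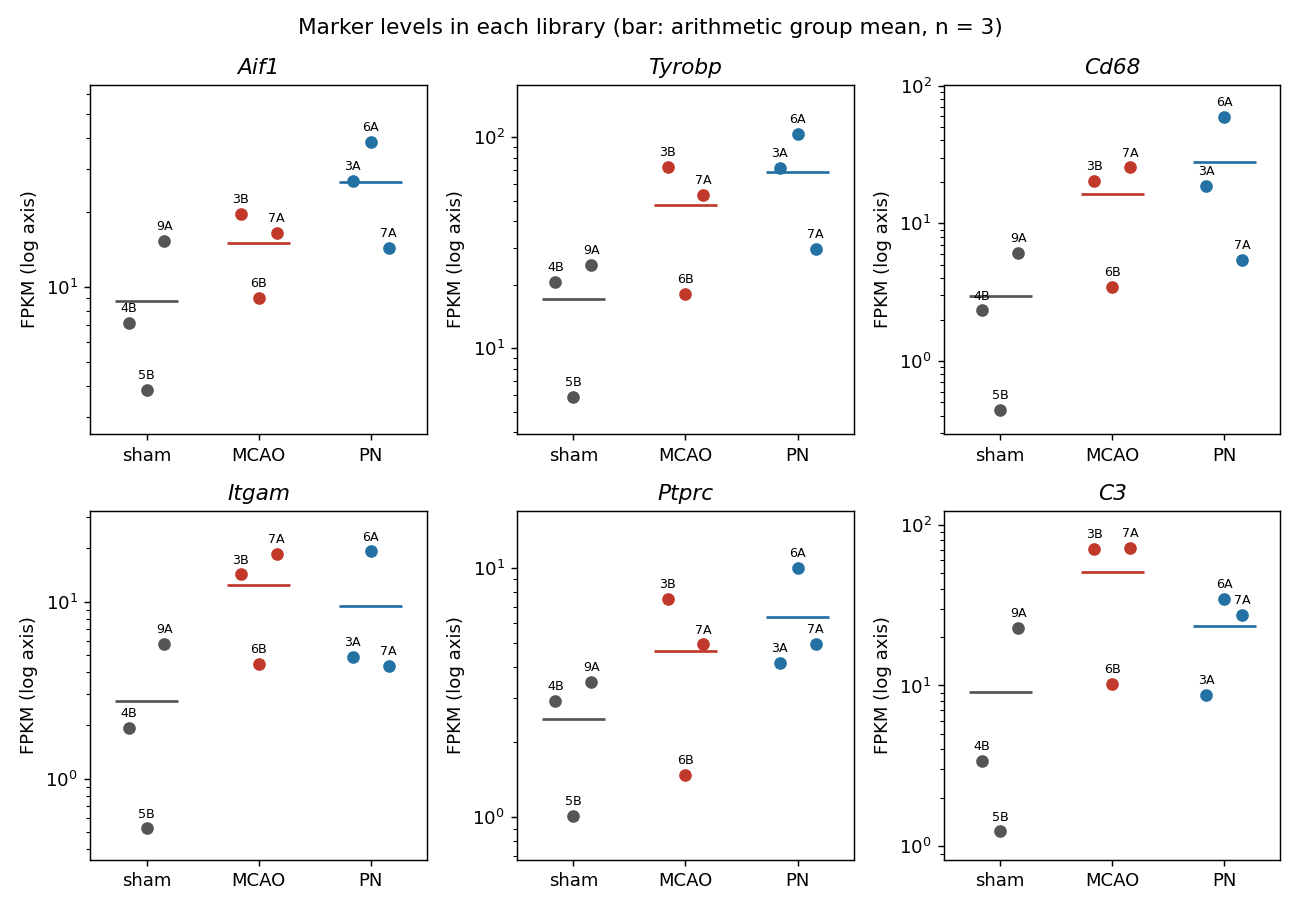
FPKM (log axis) of each marker in each library, by group, with the sample code beside each point and a bar at the arithmetic mean of 3 libraries. Sham 5B is the lowest point in every panel, MCAO 6B lies below the other MCAO libraries in every panel, and PN 6A is the highest point in every panel but that of C3.

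Summed over the 6 genes, FPKM ran from 12.95 in sham 5B to 265 in PN 6A, or 0.00329% to 0.0656% of all FPKM. Sham 5B also had the fewest genes at 1 FPKM or more (13934) and PN 6A the most (14687). Over the 9 libraries this number had r = 0.75 and rho = 0.72 with the mean standardised level of the 6 genes, the highest of 5 library measures compared (FPKM sum r = 0.12, genes above 0 r = 0.34, relative depth r = -0.50, first principal component r = 0.37). These are descriptions without a test, and the part of this measure in the results was not tested. Relative depth was read from the steps of values under 0.15 FPKM. With MCAO 3B, the shallowest library, set to 1, sham 5B had a depth of 1.28, PN 6A of 1.2 and PN 7A, the deepest, of 1.33. The number of reads is unknown, so no counting interval is given. In the sham group the highest library for 6 of 6 genes was 9A, whose column name starts unlike those of the other sham libraries and whose code ends in A instead of B; what either marks is not known. The letter was fitted as a covariate in each comparison, with the values given there, and the part of the name start was not tested.

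Of the 6 markers, Tyrobp had the highest mean over the 9 libraries, although in MCAO the mean of C3 was higher. Aif1 had 7.17, 3.84 and 15.3 FPKM in the sham libraries 4B, 5B and 9A. It had 19.7, 9.06 and 16.5 FPKM in the MCAO libraries 3B, 6B and 7A and 26.8, 38.4 and 14.3 FPKM in the PN libraries 3A, 6A and 7A. Sham 9A thus reached the range of the MCAO libraries, and PN 7A lay below sham 9A. Group means of Aif1 were 8.78 ± 5.92 FPKM in sham, 15.1 ± 5.45 FPKM in MCAO and 26.5 ± 12.04 FPKM in PN (SD, n = 3 each).

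Tyrobp had 20.6, 5.90 and 24.9 FPKM in the sham libraries 4B, 5B and 9A. It had 72.3, 18.0 and 53.1 FPKM in the MCAO libraries 3B, 6B and 7A and 71.7, 103.8 and 29.7 FPKM in the PN libraries 3A, 6A and 7A. MCAO 6B lay among the sham libraries, whereas all 3 PN libraries were above all 3 sham libraries. Its mean over the 9 libraries, 44.4 FPKM, was higher than that of 87.1% of the genes tested. The group means were 17.1 ± 9.94, 47.8 ± 27.6 and 68.4 ± 37.2 FPKM in sham, MCAO and PN (SD, n = 3 each).

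The phagocyte marker Cd68 had the widest range. It had 2.33, 0.443 and 6.07 FPKM in the sham libraries 4B, 5B and 9A. It had 20.4, 3.46 and 25.4 FPKM in the MCAO libraries 3B, 6B and 7A and 18.6, 59.5 and 5.40 FPKM in the PN libraries 3A, 6A and 7A. In both groups with the occlusion 2 libraries were well above every sham library and the remaining library, MCAO 6B or PN 7A, lay between sham 4B and sham 9A. The PN mean of 27.9 ± 28.2 FPKM (SD, n = 3) rests mainly on PN 6A, and the MCAO and sham means were 16.4 ± 11.5 and 2.95 ± 2.87 FPKM (SD, n = 3 each).

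Itgam, the CD11b integrin chain shared by microglia, monocytes and neutrophils, had 1.94, 0.522 and 5.78 FPKM in the sham libraries 4B, 5B and 9A. It had 14.2, 4.46 and 18.5 FPKM in the MCAO libraries 3B, 6B and 7A and 4.85, 19.2 and 4.35 FPKM in the PN libraries 3A, 6A and 7A. It was the only member besides C3 whose mean was lower in PN (9.46 ± 8.43 FPKM) than in MCAO (12.4 ± 7.20 FPKM; SD, n = 3 each), and PN 3A and PN 7A were below sham 9A.

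Ptprc, the pan-leukocyte phosphatase, was the least abundant member, with a mean of 4.50 FPKM over the 9 libraries, against a median of 10.4 FPKM over the means of all genes tested. It had 2.94, 1.01 and 3.48 FPKM in the sham libraries 4B, 5B and 9A. It had 7.53, 1.48 and 4.93 FPKM in the MCAO libraries 3B, 6B and 7A and 4.17, 9.98 and 4.97 FPKM in the PN libraries 3A, 6A and 7A. All PN libraries were above all sham libraries, and MCAO 6B lay between sham 5B and sham 4B. The group means were 2.48 ± 1.295, 4.65 ± 3.04 and 6.37 ± 3.15 FPKM in sham, MCAO and PN (SD, n = 3 each).

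C3 had 3.39, 1.24 and 22.8 FPKM in the sham libraries 4B, 5B and 9A. It had 70.8, 10.2 and 72.0 FPKM in the MCAO libraries 3B, 6B and 7A and 8.74, 34.4 and 27.5 FPKM in the PN libraries 3A, 6A and 7A. MCAO 3B and 7A were nearly equal and were the highest of all libraries, while MCAO 6B and PN 3A lay below sham 9A. Its group means were 9.14 ± 11.9 FPKM in sham, 51.0 ± 35.4 FPKM in MCAO and 23.6 ± 13.3 FPKM in PN (SD, n = 3 each), the only member with its highest group mean in MCAO apart from Itgam.

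MCAO against sham bears on the occlusion. All 6 markers had higher means in MCAO, but none passed the test: 0 of 6 reached an adjusted p under 0.05 (limma, Benjamini-Hochberg over 15051 genes), where 0.00664% of all genes did. On the log2(FPKM + 1) scale 48.2% of all genes tested had a higher mean in MCAO. The 6 markers varied together across libraries, so their directions are not 6 separate observations. The difference in mean log2(FPKM + 1) was 2.66 for C3 (standard error 0.97, 95% interval 0.48 to 4.84) and 1.91 for Itgam (standard error 0.70, interval 0.35 to 3.48), and both had an adjusted p of 0.395 (limma). These 2 genes were also the 2 of 6 at an unadjusted p under 0.05, a level that 11.1% of all genes reached. Cd68 differed by 2.07 (standard error 0.93), Tyrobp by 1.43 (standard error 0.66), Aif1 by 0.83 (standard error 0.49) and Ptprc by 0.61 (standard error 0.50), with adjusted p from 0.453 to 0.661 (limma). The median difference over the 6 was 1.67, against -0.01 over all genes tested.

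In each of the 6 genes 2 of the 3 MCAO libraries, 3B and 7A, exceeded all sham libraries and MCAO 6B did not. Thus 0 of 6 members had groups that did not overlap, where 8.59% of all genes had every MCAO library above every sham library. The differences depended on single libraries: without MCAO 6B those of Cd68 and Tyrobp became 2.88 and 2.01, and 5 of 6 genes had an unadjusted p under 0.05 (limma, adjusted p of at least 0.489), whereas without sham 5B the differences of C3 and Aif1 became 1.93 and 0.41 and 0 of 6 had. Without sham 9A the count was again 5 of 6 (limma, adjusted p of at least 0.392). It was 0 of 6 without sham 4B, without MCAO 3B or without MCAO 7A. The share of all genes at this unadjusted level was taken for the main fit only. Counts from refits therefore have no such share beside them and are not read as a result about the markers. With the letter that ends the sample code as a covariate, the count was 3 of 6. The differences of C3 and Itgam were then 2.66 (standard error 0.76; limma, adjusted p = 0.368) and 1.91 (standard error 0.59; limma, adjusted p = 0.394).

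**Figure D2:**
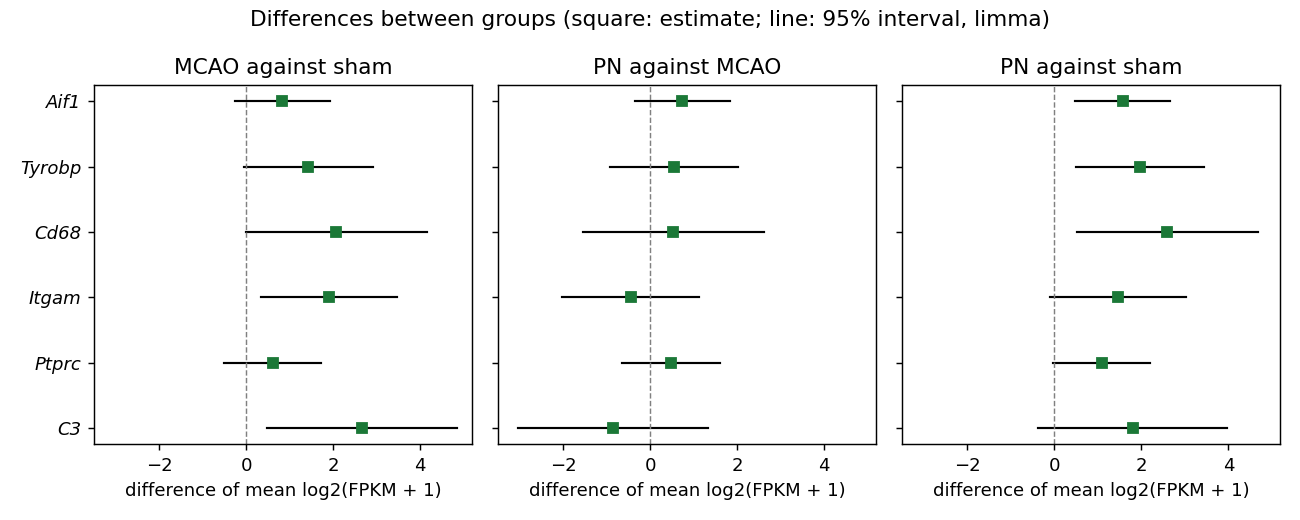
Difference of mean log2(FPKM + 1) between groups for each marker (squares) with its 95% interval (lines, limma fit of 9 libraries), in 3 panels for the 3 comparisons. For MCAO against sham the interval of C3 (0.48 to 4.84) and that of Itgam lie above 0, for PN against MCAO every interval spans 0, and for PN against sham those of Aif1, Tyrobp and Cd68 lie above 0.

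PN against MCAO bears on the treatment, since both groups had the occlusion. The 6 markers did not share a direction: the means on the log2(FPKM + 1) scale were higher in PN for Aif1, Tyrobp, Cd68 and Ptprc and lower for C3 and Itgam, and none passed the test (limma, 0 of 6 at an adjusted p under 0.05 and 0 of 6 at an unadjusted p under 0.05). Over all genes these shares were 0.00664% and 13.2%, and 57.1% of all genes had a higher mean in PN. Aif1 differed by 0.74 (95% interval -0.36 to 1.83; adjusted p = 0.534, limma), Tyrobp by 0.54 (interval -0.93 to 2.02), Cd68 by 0.53 (interval -1.55 to 2.61) and Ptprc by 0.48 (interval -0.64 to 1.60). C3 differed by -0.86 (interval -3.04 to 1.32; adjusted p = 0.722, limma) and Itgam by -0.45 (interval -2.02 to 1.11). The intervals thus reach from a 2-fold or larger decrease to a more than 2-fold increase for C3, Itgam and Cd68, so neither a change of that size nor its absence could be shown. The median over the 6 was 0.50, against 0.07 over all genes.

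No member had separate PN and MCAO ranges in either direction. The share over all genes was taken in the upward direction only: 13.6% had every PN library above every MCAO library. PN 6A was above all MCAO libraries for 5 of 6 genes, and PN 3A was above them for Aif1 (26.8 against at most 19.7 FPKM). PN 7A, in contrast, was below MCAO 3B and 7A for Aif1, Tyrobp, Cd68, Itgam and C3. The sign of Cd68 turned without PN 6A (-0.28) and without MCAO 6B (-0.27), and Tyrobp and Ptprc were both at -0.03 without MCAO 6B (limma, adjusted p of at least 0.884). With 1 library left out in turn the difference of C3 ran from -1.76 (without MCAO 6B) to -0.29 (without PN 3A), that of Itgam from -1.07 (without PN 6A) to -0.09 (without MCAO 7A) and that of Aif1 from 0.42 (without PN 6A) to 1.11 (without PN 7A). With the letter that ends the sample code, which is A in all PN libraries, as a covariate, the difference of C3 was -2.29 (standard error 0.93; limma, unadjusted p = 0.0375, adjusted p = 0.584, and 0.542 to 0.977 over its alternatives) and that of Itgam -1.38 (standard error 0.72; limma, adjusted p = 0.584, and 0.361 to 0.983 over its alternatives).

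Differences left under treatment were read from PN against sham, which uses the same sham libraries as MCAO against sham. All 6 markers had higher means in PN and 0 of 6 passed (limma, adjusted p = 0.974 for each), where 0.0199% of all genes did. A higher mean in PN was found for 55.5% of all genes. The 3 genes Aif1, Tyrobp and Cd68 had an unadjusted p under 0.05, against 4.25% of all genes. Aif1 differed by 1.57 on the log2(FPKM + 1) scale (standard error 0.49, 95% interval 0.47 to 2.66; limma, unadjusted p = 0.00995), and 0.591% of genes tested had a smaller p. Tyrobp differed by 1.97 (standard error 0.66, interval 0.50 to 3.45), Cd68 by 2.60 (standard error 0.93, interval 0.52 to 4.69), C3 by 1.80 (standard error 0.97), Itgam by 1.46 (standard error 0.70) and Ptprc by 1.09 (standard error 0.50). The median over the 6 was 1.68, against 0.04 over all genes.

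The PN and sham ranges did not overlap for 2 of 6 members, Tyrobp and Ptprc, where 6.18% of all genes had every PN library above every sham library. For Tyrobp the lowest PN library was at 29.7 FPKM and the highest sham library at 24.9 FPKM, and for Ptprc these were 4.17 and 3.48 FPKM. The number of members at an unadjusted p under 0.05 was 1 without sham 5B, 1 without PN 6A and 6 without sham 9A (limma, adjusted p of at least 0.75). It was 0 without sham 5B and PN 6A together, and 0 with the letter of the code as a covariate. For these refits the share of all genes at that level was not taken, so the counts are not read as a result about the markers. The differences moved as well. That of C3 was 1.07 without sham 5B, 2.77 without sham 9A, 0.71 without sham 5B and PN 6A together and 0.37 with the letter as a covariate, and that of Itgam was 0.84 without PN 6A, 0.33 without both and 0.54 with the letter. Without both libraries Cd68 differed by 1.21, Aif1 by 0.84, Tyrobp by 1.0 and Ptprc by 0.41. Over the 20 alternatives of this comparison the smallest adjusted p was 0.479 (limma).

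The markers varied together from library to library. Pearson r between log2(FPKM + 1) values over the 9 libraries was 0.71 to 0.97 for the 15 pairs, with a median of 0.88, and Spearman rho was 0.63 to 0.97. Each of the 15 pairs had an exact permutation p of at most 0.0309 for r (largest adjusted p over the 15 pairs also 0.0309), and 14 of 15 passed for rho, the exception being Aif1 with C3 (rho = 0.63, exact permutation p = 0.0760). The closest pair was Cd68 with Tyrobp (r = 0.97, rho = 0.92), followed by Aif1 with Tyrobp (r = 0.96, rho = 0.95), and the loosest was Aif1 with C3 (r = 0.71). Sham 5B and PN 6A, the libraries farthest from the median for every marker but C3, carried part of this. Without them r was 0.51 to 0.94, and 6 of 15 pairs had an exact permutation p under 0.05. Among those 6, Cd68 with Tyrobp was at r = 0.94 and Itgam with C3 at r = 0.92, while Aif1 with C3, at r = 0.51, no longer held (exact permutation p = 0.248). Deviations from the group means, in which group differences are removed, had r from 0.67 to 0.94.

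**Figure D3:**
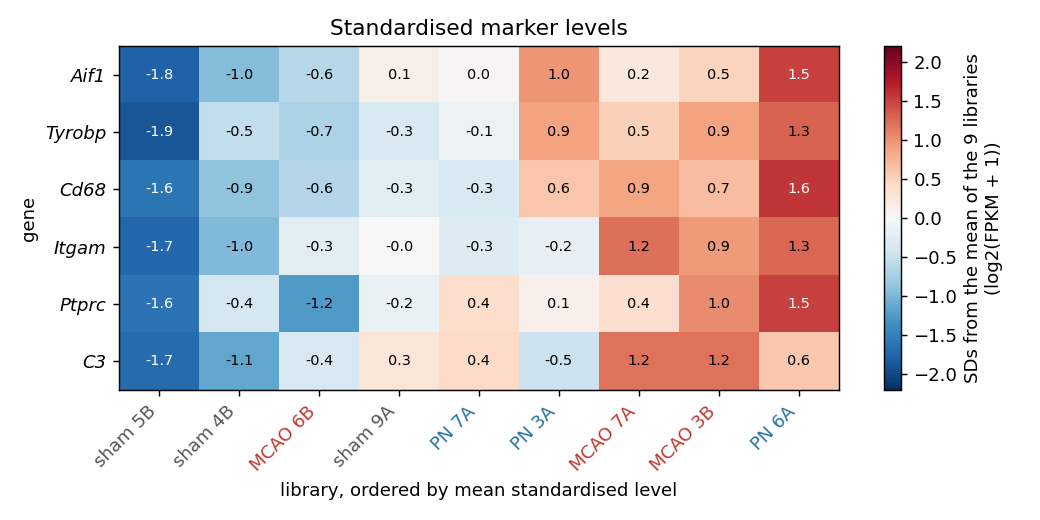
Level of each marker (rows) in each library (columns, ordered by the mean of the 6 rows) as standard deviations from the gene's mean over the 9 libraries on the log2(FPKM + 1) scale. The order runs from sham 5B through sham 4B and MCAO 6B to PN 6A, so MCAO 6B stands between sham libraries, and in the PN 3A column Aif1 (0.964) and Tyrobp (0.877) are above their means while C3 (-0.475) and Itgam (-0.174) are below.

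Each member was also set against the mean standardised level of the other 5. Cd68 followed it most closely (r = 0.96), and 0.239% of the 15045 other genes tested followed that mean as closely. Tyrobp was at 0.95, Itgam at 0.93, and Aif1 and Ptprc at 0.91. C3 was the least tied to the rest at r = 0.82, a value that 3.50% of other genes reached. Outside the 6, 266 genes had r of at least 0.9 with the mean of all 6 over the 9 libraries, and 15 had r of -0.9 or lower. The 2 most alike were ENSRNOG00000010319, from 3.71 FPKM in sham 5B to 33.8 FPKM in PN 6A, and ENSRNOG00000028566, from 7.36 to 89.5 FPKM in the same libraries, both at r = 0.993. No symbol was paired with these IDs.

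Ratios between markers within a library, picked after the values were seen and therefore given without a test, showed where the markers parted. The ratio of Itgam to Aif1 was 0.270, 0.136 and 0.377 in sham 4B, 5B and 9A, 0.724, 0.492 and 1.12 in MCAO 3B, 6B and 7A, and 0.181, 0.500 and 0.304 in PN 3A, 6A and 7A. All MCAO libraries, 6B included, were thus above all sham libraries in this ratio, and PN 6A barely exceeded MCAO 6B. Of the other ratios computed, only Itgam to Ptprc also separated MCAO from sham, and the rest overlapped. In C3 to Aif1, for example, MCAO 6B (1.13) was below sham 9A (1.49), as in Cd68 to Aif1 (0.382 and 0.396). The ratio of C3 to Tyrobp was 0.979, 0.566 and 1.36 in MCAO 3B, 6B and 7A and 0.122, 0.331 and 0.929 in PN 3A, 6A and 7A. Sham 9A, at 0.917, was close in that ratio to MCAO 3B, whereas sham 4B and 5B were at 0.165 and 0.209. With 3 libraries a group an exact permutation test cannot give a p below 0.1.

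**Figure D4:**
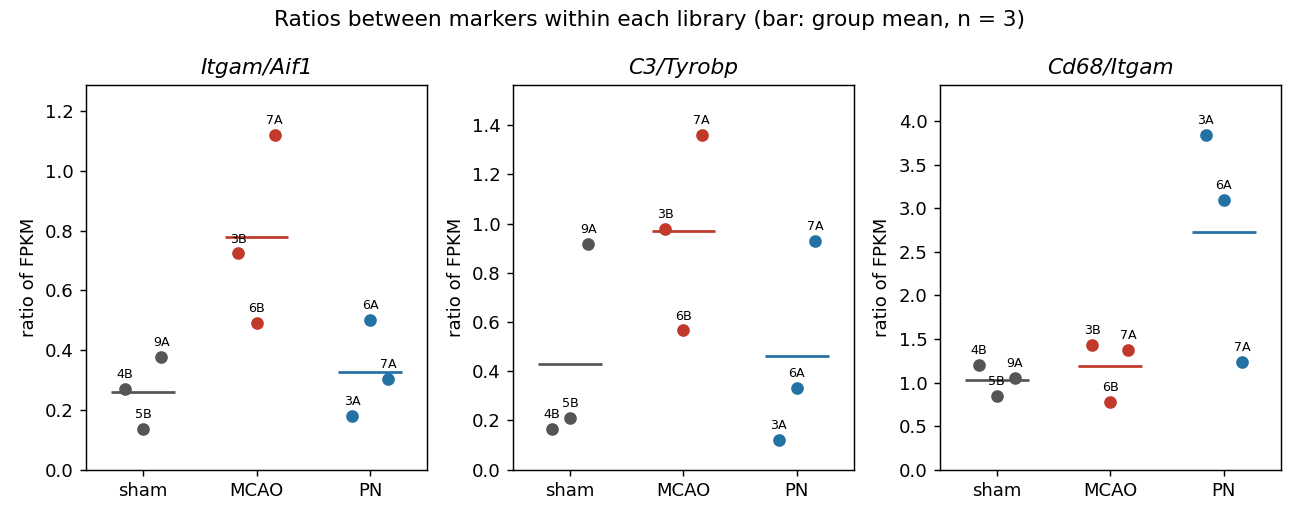
Ratios of FPKM within each library for Itgam to Aif1, C3 to Tyrobp and Cd68 to Itgam, by group, with sample codes and a bar at the mean of 3 libraries. In the first panel the MCAO points (0.492 to 1.12) lie above the sham points (0.136 to 0.377), and in the last PN 3A (3.84) and PN 6A (3.10) stand above the other 7 libraries.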

How the data were processed

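The authors deposited 1 table of FPKM values, per the file headers, with 1 column per sample. The submitters' processing notes list HISAT2, StringTie 1.3.1, fastp 0.18.0 and Bowtie2 2.2.8, with no role for any. The build, the annotation and the strandedness were not given in the sources used here. Columns were matched to samples by the code that ends each name; the code 7A ends 2 titles and was matched by the start of the name.

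Genes that reached 1 FPKM in 3 or more libraries were tested on the log2(FPKM + 1) scale, which understates the change of low genes, in 1 limma fit of the 9 libraries with a mean-variance trend (limma 3.58.1, R 4.3.3), two-sided, with Benjamini-Hochberg adjustment over all 15051 genes. Correlations used exact two-sided permutation over libraries (Python 3.11.15, numpy 2.4.6). The limma fit was also run on simulated data in which genes varied independently, unlike these markers, and its outcome is not used here. All 6 members are named by rule, as are the genes most alike to their mean. Members and lists were chosen with earlier results of these data known. Marker lists of other cell types and of related pathways were not applied, because the rat gene table used here (GRCr8) paired 0 of the IDs with a symbol. Alternatives were other pseudocounts, filters, scalings, weights, covariates and left-out libraries.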

Additional observations from a re-analysis of the deposited data

How the results depend on the processing

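No member was called in any comparison under any alternative run: the smallest adjusted p was 0.300 over 20 alternatives for MCAO against sham, 0.361 over 21 for PN against MCAO and 0.479 over 20 for PN against sham (limma). The direction of all 6 markers held in every alternative for MCAO against sham and for PN against sham. In PN against MCAO it turned in 8 of 125 values: for Cd68 with array weights (-0.65), with the code's letter as a covariate (-0.51), without MCAO 6B (-0.27), without PN 6A (-0.28) and without sham 5B and PN 6A together (-0.28, chosen after seeing the data), for Tyrobp with array weights (-0.22) and without MCAO 6B (-0.03), and for Ptprc without MCAO 6B (-0.03); the cause was not tested. With 1 library left out in turn the differences ran from -0.28 to 1.34 for Cd68, -0.03 to 1.05 for Tyrobp and -0.03 to 0.86 for Ptprc. In the fit with a replicate block for the sample number 0 of 6 members were called (smallest adjusted p = 0.624); deviations of the same-numbered MCAO and PN libraries correlated at 0.06, -0.40 and -0.16, so the numbers were not taken to pair samples. A pseudocount of 0.1 gave a difference of 2.61 for Cd68 and 2.45 for Itgam in MCAO against sham. With a minimum of 5 FPKM Ptprc was not tested. Other scalings moved no difference by more than the standard error, and the correlated pairs numbered 15 with median-of-ratios scaling. With deviations from group means 14 pairs passed. That permutation ran over all 9 libraries and did not allow for the group means removed beforehand. Its p-values are therefore likely too small, and the 14 is given as a description only. Depth in reads is unknown, so the limit it sets was not computed.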

Other observations

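The ratio of Cd68 to Itgam, computed after the values were seen, set PN 3A (3.84) and PN 6A (3.10) apart from the other libraries, which lay between 0.776 (MCAO 6B) and 1.43 (MCAO 3B), PN 7A (1.24) included. PN 3A and PN 6A differ in the start of their column names, which no label explains. The ratio of Itgam to Ptprc was 1.89, 3.03 and 3.75 in MCAO 3B, 6B and 7A, against 0.661, 0.515 and 1.66 in sham 4B, 5B and 9A and 1.16, 1.92 and 0.874 in PN 3A, 6A and 7A. MCAO 6B, low in the level of every marker, was thus among the highest libraries in this ratio. Tyrobp to Aif1 varied least of the 8 ratios computed, from 1.54 in sham 5B to 3.68 in MCAO 3B. These values are given without a test.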
